A study of Mus musculus with 2 samples.

Results

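The axon guidance ligands and receptors examined here are 70 protein-coding genes of 21951 in the GENCODE M21 annotation of mouse genome build mm10, matched by gene symbol. The symbols cover the semaphorins and their plexin and neuropilin receptors, the Slits and Robos, netrin 1, netrin 4 and the netrin receptors, and the Eph receptors with their ephrin ligands. That gives 33 ligand genes and 35 receptor genes, plus Unc50 and Unc5cl. These 2 share the symbol prefix of the Unc5 netrin receptors but are no guidance receptors. Both count in the totals over the 70 genes, but among neither the ligands nor the receptors. Accessible chromatin was mapped by DNase-seq, in which the enzyme DNase I cuts open DNA and the cut sites are sequenced. The tissue was frontal cortex of female B6CASTF1/J mice, a first-generation cross of C57BL/6J and CAST/EiJ, aged 14 days. There was 1 group of 2 libraries, biological replicates 1 and 2, from separate biosamples that carry the same donor label. A mark on both labels, 3x, goes unexplained there, so pooling of animals is possible, and differences between the libraries may be partly technical. With 1 untreated group there is no comparison between conditions and no test, and each value is given in both libraries.

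Growing axons steer by reading cues in their surroundings through receptors on the growth cone. Secreted class 3 semaphorins bind neuropilins that signal together with plexins, whereas most membrane-bound semaphorins bind plexins directly. Slits repel through Robo receptors, netrin 1 attracts through Dcc and repels through Unc5 receptors, and ephrins on one cell bind Eph receptor kinases on its neighbour and signal in both directions. In the postnatal cortex, many of these genes also act in dendrite growth, synapse formation and the refinement of connections.

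The labelled tissue was checked against cell type markers. All 6 pan-neuronal markers examined had a peak at their promoter in both libraries, beside 58.8% of all protein-coding genes. So did 2 of 5 excitatory markers (5 in replicate 1) and 2 of 5 inhibitory markers (4 in replicate 1). The same held for 3 of 5 astrocyte, 2 of 4 oligodendrocyte precursor (3 in replicate 1) and 1 of 5 endothelial markers (2 in replicate 2). None of 5 oligodendrocyte, 5 microglial and 6 muscle or liver markers did, but each of these groups had 1 such marker in replicate 1. The longer of the 2 deposited peak lists per library held 93641 peaks in replicate 1 and 66196 in replicate 2, with 234094 and 154015 footprints, the short protected stretches inside open chromatin. Replicate 1 therefore offered more calls of every kind. In bulk tissue, fewer cells of a type and less open chromatin per cell cannot be told apart.

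Promoter peaks were common among the guidance genes. A promoter peak is a peak that comes within 500 bp of an annotated transcription start of the gene, counting all of its starts. Replicate 1 had one at 62 of the 70 genes, where 63.7% of all protein-coding genes had one, and replicate 2 at 55, where the share of all genes was 59.2%. Both libraries had one at 55 genes (78.6%), beside 58.8% of all protein-coding genes. No gene had a promoter peak in replicate 2 alone. Receptor genes had one in both libraries in 29 of 35 cases and ligand genes in 25 of 33. All members of the neuropilins (2 genes), Slits (3), netrin receptors (6), EphB receptors (5) and ephrin-Bs (3) were among them. So were 6 of 7 secreted semaphorins, 10 of 13 membrane-bound semaphorins, 8 of 9 plexins, 6 of 9 EphA receptors, 2 of 4 Robos, 1 of 2 netrins and 2 of 5 ephrin-As.

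The 8 genes with no promoter peak in either library were Sema3g, Plxnb3, Robo3, Robo4, Epha10, Efna2, Efna4 and Unc5cl. Robo4 is best known from endothelium, and Robo3 from commissural axons of the hindbrain and spinal cord. Within 500 bp of their starts, the deposited list of bases with cutting above background at a false discovery rate (FDR) below 0.05 held 0 bases for 5 of these 8 genes in replicate 1 and for 6 in replicate 2, whereas 97.9% and 99.2% of all 7879 genes without a promoter peak in either library had 0. The other genes had at most 168 such bases in replicate 1 (Epha10, an Eph receptor without kinase activity) and at most 51 in replicate 2 (Robo3). Listed bases were thus few at these starts, but present in a larger share of the 8 genes than of all such genes. The same windows of the 55 genes with a promoter peak in both libraries held a median of 944 and 686 listed bases. In the 500 bp on either side of the gene's 5′ end, the 8 genes had a median CpG ratio, observed over expected, of 0.309. It was 0.743 for the 55 genes. Over all protein-coding genes the medians were 0.180 without a promoter peak in either library and 0.724 with one in both, so the contrast is not particular to the members. Efna2, a ligand of EphA receptors that helps to order visual maps, had the highest ratio of the 8 genes, 0.865, with 0 listed bases in both libraries. Efna4 and Robo3 were also well above the median of the 8, with 0.602 and 0.578.

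A further 7 genes had a promoter peak in replicate 1 alone. They were Sema4d, Sema4g, Sema5a, Ntn4, Epha1, Epha8 and Efna1. Sema4d, the ligand of plexin B1, had a strength of 1.10 there, Efna1 1.29, Epha1 1.13, Sema5a 0.857, Sema4g 0.703, the laminin-binding netrin Ntn4 0.583 and Epha8 0.435. Strength is the authors' signal value of the peak, whose scale is not stated, and it is used here to describe and rank peaks within a library. In replicate 2, 5 of the 7 starts held 0 FDR-listed bases and the others at most 34 (Sema5a), beside 84.5% with 0 among all 1079 genes with a promoter peak in replicate 1 alone.

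Most of the promoter peaks were weaker than those of other genes. The strongest promoter peak of each guidance gene had a median strength of 1.57 in replicate 1 and 1.12 in replicate 2, whereas the medians over all protein-coding genes with a promoter peak were 2.70 and 1.87. The median member stood at percentile 29.9 among those genes in replicate 1 and 26.3 in replicate 2. Below the median of all genes were 47 of 62 members in replicate 1 and 42 of 55 in replicate 2. Above the 90th percentile were 2 members in each library, and both times these were Ephb3 and Efnb2. Receptors had medians of 1.73 and 1.26, and ligands 1.36 and 0.815. The strength was the higher in replicate 1 for each of the 55 genes, with a median ratio of 1.55, which was also 1.55 over all genes, so strengths are read within a library only. The order of the members was alike in both, with a Spearman correlation of 0.925 across the 55 genes, a description over genes that share the same libraries. Over all 12910 genes with a promoter peak in both libraries it was 0.946.

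**Figure D1:**
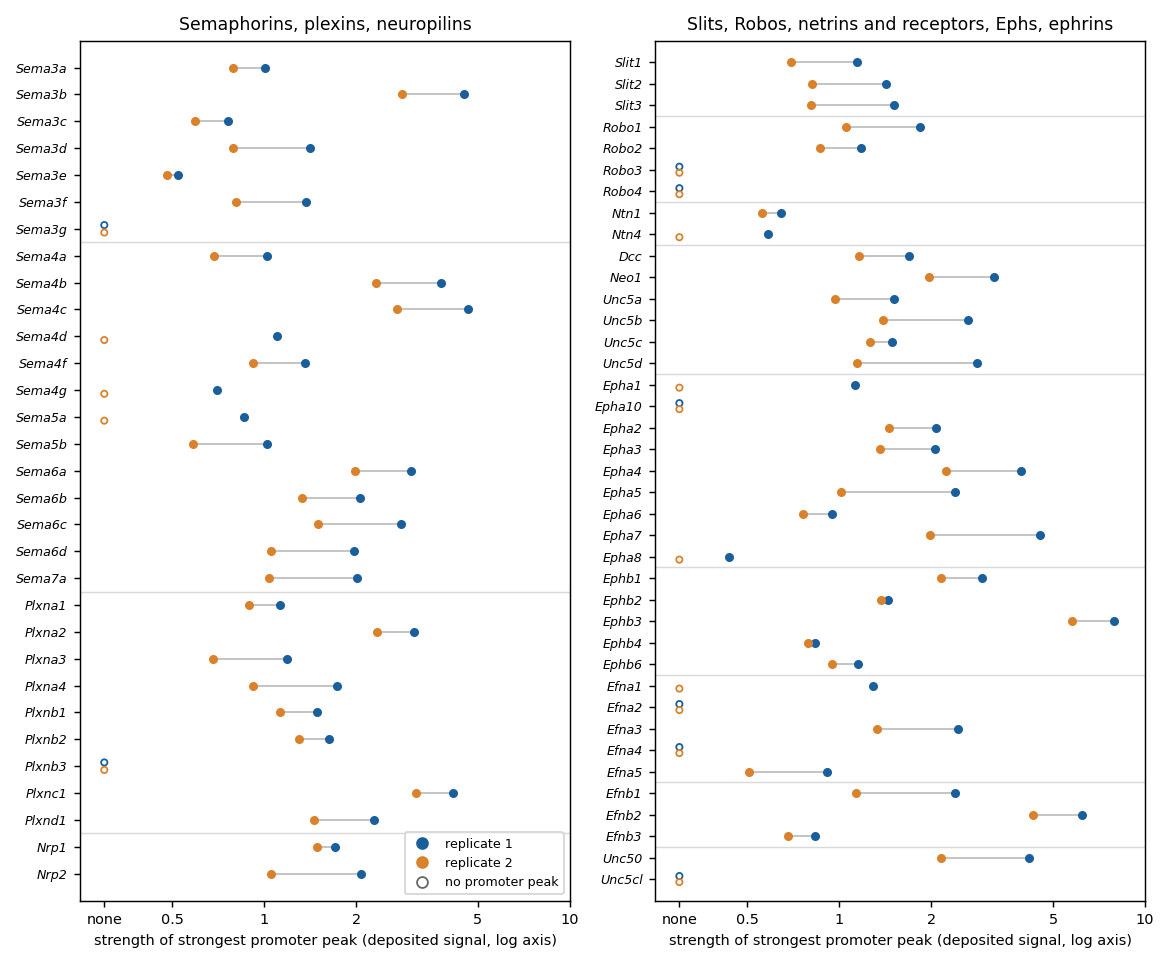
Strength of the strongest promoter peak of each of the 70 genes on a log axis, replicate 1 in blue and replicate 2 in orange, with open circles for genes without a promoter peak in that library. Ephb3 and Efnb2 lie farthest to the right in both libraries, and 8 genes have open circles in both.

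Among secreted semaphorins, the promoter of Sema3b, which signals through neuropilins, was the strongest, with 4.51 in replicate 1 and 2.81 in replicate 2. Sema3e, which can bind plexin D1 without a neuropilin, was the weakest, with 0.522 and 0.480. The other 4 with a promoter peak in both libraries (Sema3a, Sema3c, Sema3d and Sema3f) lay between 0.764 and 1.41 in replicate 1 and between 0.592 and 0.806 in replicate 2, so Sema3b stood alone in this family. Its peak lies at an internal start, and its 5′ end alone had no peak in either library. Of the membrane-bound semaphorins with a promoter peak in both libraries, Sema4c was highest by mean percentile, with 4.64 and 2.72, and Sema5b lowest, with 1.02 and 0.583. Sema4c too depends on the start used, since its 5′ end alone had 1.73 and 0.823. Sema7a, a semaphorin held by a lipid anchor, had 2.02 and 1.04. Its receptor Plxnc1 had the strongest plexin promoter, with 4.14 and 3.13. At the 5′ end of the gene record alone Plxnc1 had 1.23 and 0.832, below the 2.28 and 1.45 of Plxnd1, so its lead rests on an internal start. Of the plexins with a promoter peak in both libraries, the X-linked Plxna3 was lowest by mean percentile, with 1.19 and 0.678, although Plxna1 was lower in replicate 1, with 1.13. The neuropilins were close to each other in strength. Nrp1, the receptor of Sema3a and also of vascular growth factors, had 1.70 and 1.48. Nrp2, which prefers Sema3f, had 2.07 and 1.05, so their order differed between the libraries.

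The promoters of the Slits, Robo1 and Robo2 were of low strength, with mean percentiles from 16.2 (Slit1) to 29.6 (Robo1). Slit3 had 1.51 in replicate 1 and 0.806 in replicate 2, Slit2 1.43 and 0.815, and Slit1 1.15 and 0.695, so Slit3 and Slit2 change places between the libraries. Robo1 had 1.84 and 1.05 and Robo2, the other main Slit receptor of the forebrain, 1.18 and 0.866. Ntn1 was among the weakest of all members, with 0.643 and 0.558. The receptors of netrin were stronger than the ligand in both libraries. Neo1, which also binds repulsive guidance molecules, led them with 3.20 and 1.96, and the attractive receptor Dcc had 1.69 and 1.16. The lowest of them by mean percentile was the repulsive receptor Unc5a, with 1.51 and 0.969.

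EphA promoters were led by Epha7, with 4.54 and 1.97, and by Epha4, which binds ephrins of both classes, with 3.93 and 2.23. The lowest with a promoter peak in both libraries was Epha6, with 0.944 and 0.763. Ephb3 had the strongest promoter of all members, with 7.92 and 5.76, and its relative Ephb4 0.830 and 0.789. The EphB family thus held both the top of the list and one of its weak members. Of the ephrin-As, Efna3 had 2.45 and 1.33 and Efna5, a graded cue for cortical and visual projections, 0.911 and 0.506. Efnb2, a transmembrane ephrin, followed Ephb3 in both libraries, with 6.22 and 4.31, while Efnb3 had 0.830 and 0.678. Unc50 had 4.16 and 2.15, in peaks that also lie at the start of the neighbouring gene Coa5. Strongest promoter peaks of Sema4c, Sema5a, Unc5c, Epha4, Epha6 and Efnb2 likewise came within 500 bp of the start of a noncoding gene.

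The promoter peaks of the receptor and ligand genes with the highest strength are shown because they mark the upper end of the list. Both are given on the gene's strand of mm10, as the stretch that lies in the strongest promoter peak of both libraries outside annotated untranslated regions. Capitals mark bases inside footprints of both libraries. The C57BL/6J reference is printed, and the CAST allele these animals also carry may differ from it. The Ephb3 stretch is chr16:21204441-21204600 on the plus strand, 160 bp just upstream of the gene, and the Efnb2 stretch is chr8:8661243-8661440 on the minus strand, 198 bp just upstream.
Ephb3 promoter: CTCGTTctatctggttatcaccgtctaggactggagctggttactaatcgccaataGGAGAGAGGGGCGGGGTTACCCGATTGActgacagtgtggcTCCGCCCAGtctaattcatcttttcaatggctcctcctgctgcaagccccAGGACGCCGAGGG
Efnb2 promoter: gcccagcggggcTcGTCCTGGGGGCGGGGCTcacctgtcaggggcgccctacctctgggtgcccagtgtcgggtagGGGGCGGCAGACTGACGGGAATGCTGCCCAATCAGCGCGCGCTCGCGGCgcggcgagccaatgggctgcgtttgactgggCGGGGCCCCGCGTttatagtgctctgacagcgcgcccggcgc
Footprints of both libraries covered 56 bases of the Ephb3 stretch and 80 bases of the Efnb2 stretch. Both stretches hold the letters GGGGCGGGG, the SP/KLF motif, within such bases. Some promoter peak of a member held a footprint in both libraries for 54 of the 70 genes (77.1%), beside 56.1% of all protein-coding genes. Such a footprint needs a promoter peak, so these shares follow those of promoter peaks. Among genes with a promoter peak in both libraries, it was 54 of 55 members and 12314 of all 12910 genes. The exception among the 55 genes with a promoter peak in both was Unc5a, whose promoter peaks held 7 footprints in replicate 1 and 0 in replicate 2.

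Several genes were open at a start far inside the gene. In 10 of 55 members (18.2%) the strongest promoter peak lay more than 1 kb from the 5′ end of the gene in both libraries, beside 11.0% of the 12910 genes. The members have a median of 5 annotated starts and all protein-coding genes of 3, and the part of this in the difference was not tested. At Sema6d the peak lay 520372 bp from the 5′ end in replicate 1 and 520612 bp in replicate 2. At Robo1 the distances were 354795 and 354705 bp, at Sema3a 274027 and 274017 bp, at Plxnc1 115254 and 115264 bp, and at Slit3 57097 and 57157 bp. Each of these sits at an internal annotated start, at most 598 bp away. At the 5′ end alone, Robo1 had a strength of 0.342 and 0.249 and Sema6d of 1.02 and 0.566. Ntn1, Plxna2, Sema3b, Sema4a and Sema4c complete the 10 genes. The strongest promoter peaks of the 2 libraries overlapped in 53 of the 55 genes. The exceptions were Ntn1, with peaks 158 bp apart, and Sema4f, with peaks 21454 bp apart at different starts.

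Outside promoters, the guidance genes held many open sites. A linked peak here is one that touches no start window of any gene and whose midpoint falls within the gene or up to 10 kb beyond either end. Linkage is by position alone and does not show which gene a site acts on. The members had a median of 5 linked peaks in replicate 1 and 3 in replicate 2, against 1 and 1 for all protein-coding genes. At least 1 linked peak that overlapped a linked peak of the other library was found at 60 of 70 members (85.7%), beside 52.9% of all protein-coding genes. The members are long, with a median of 62.8 kb against 17.4 kb. Per 100 kb of window, the medians were 4.12 and 2.44 for members and 2.63 and 1.43 for all genes. Of the 70 members, 31 fall in the longest of 10 length classes of equal size, where they had medians of 9 and 5 linked peaks and all genes of that class 6 and 4. In both libraries, 36 of the 70 members exceeded the median of their own length class, which 30.2% of all protein-coding genes did. That share weighs all 10 classes alike, whereas many members are in the longest, so it is not matched to them. Class medians ran from 0 and 0 in the shortest class to 6 and 4 in the longest, and ties do not count as exceeding. No excess beyond length is therefore read from these 2 values.

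**Figure D2:**
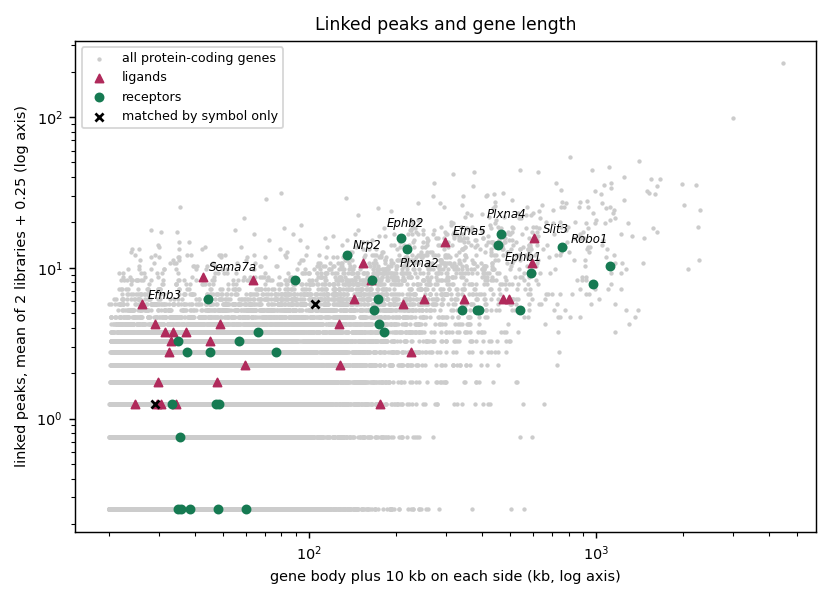
Mean number of linked peaks of the 2 libraries plus 0.25 against gene length plus 10 kb on each side, both on log axes, for all protein-coding genes (grey), ligands (triangles) and receptors (circles). Ephb2, Slit3, Plxna4, Efna5 and Robo1 lie in the upper part of the cloud at their lengths, and Sema7a and Efnb3 are short genes with several linked peaks.

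Most linked peaks were in gene bodies, but the gene body also makes up most of the window searched at long genes. The counts by place therefore do not show that open sites are concentrated inside the genes. Of 448 links in replicate 1, 358 were in the gene body, 56 upstream and 34 downstream, and of 273 in replicate 2, 204, 39 and 30. Of these links, 16 in replicate 1 and 13 in replicate 2 also fell inside another protein-coding gene. A peak of the other library overlapped 49.4% of the linked peaks of replicate 1 and 84.2% of those of replicate 2, close to the 52.7% and 82.1% found for all peaks away from starts. Footprints were present in 77.4% and 75.0% of the members' linked peaks. For these shares, and for links inside another gene, no value over all genes is given, so nothing particular to the members is read. Replicate 1 had more linked peaks at 48 genes (68.6%), replicate 2 at 6 (8.57%), and 16 genes had the same number (22.9%), beside 38.1%, 8.05% and 53.8% of all protein-coding genes, which more often have few or none.

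Plxna4, a receptor that carries Sema3a and Sema6 signals, had the most by the mean of both libraries, with 21 linked peaks in replicate 1 and 12 in replicate 2 over a gene that spans chr6:32144268-32588192. Ephb2, an ephrin-B receptor of axons and synapses, and Slit3 each had 20 and 11. Efna5 had 15 and 14, the highest number in replicate 2, Ephb1 19 and 9, Robo1 15 and 12, Plxna2 18 and 8 and Nrp2 15 and 9. Ligands and receptors of several families were thus among the members with the most linked peaks by count, a ranking not adjusted for gene length. Per 100 kb of window, Robo1 (1.98 and 1.58) and Slit3 (3.29 and 1.81) lay below the member medians of 4.12 and 2.44. Ephb1 was below in replicate 2 alone. Plxna4, Ephb2, Efna5, Plxna2 and Nrp2 lay above the medians in both libraries, with Nrp2 highest of these at 11.1 and 6.65. In the remaining groups the largest means of both libraries were at Sema3a (8 and 4) and Sema3e (9 and 3), Sema6a (12 and 9) and Sema6d (11 and 10), Ntn1 (7 and 4), Dcc (13 and 7), Epha6 (8 and 7) and Efnb2 (9 and 7), with Epha4 above Epha6 in replicate 1 alone (9 and 1). With the shorter peak list Plxna4 had 14 and 4 and Efna5 12 and 9, and several of these genes kept few, such as Sema3a with 0 and 0, Sema6d with 2 and 1, Dcc with 5 and 0 and Epha6 with 3 and 1. Relative to length the ephrin-Bs were densest, with medians of 14.1 and 11.0 linked peaks per 100 kb. Efnb3, whose gene spans 6.11 kb, had 5 and 6, most of them in the flanks of 10 kb, since the gene body alone held 1 and 0. The strongest of them lies in the neighbouring gene Dnah2. Efnb1 likewise held 2 and 0 in its gene body against 4 and 2 with the flanks, whereas Efnb2 kept 9 and 7. No linked peak was called in replicate 1 at 5 genes and in replicate 2 at 9. At least 1 was called at 65 and 61 of the 70 members, beside 14322 and 12451 of all 21951 protein-coding genes. Ephb3 was without one in both libraries although its promoter was the strongest, as were Plxna3, Plxnd1, Epha1 and Epha2.

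**Figure D3:**
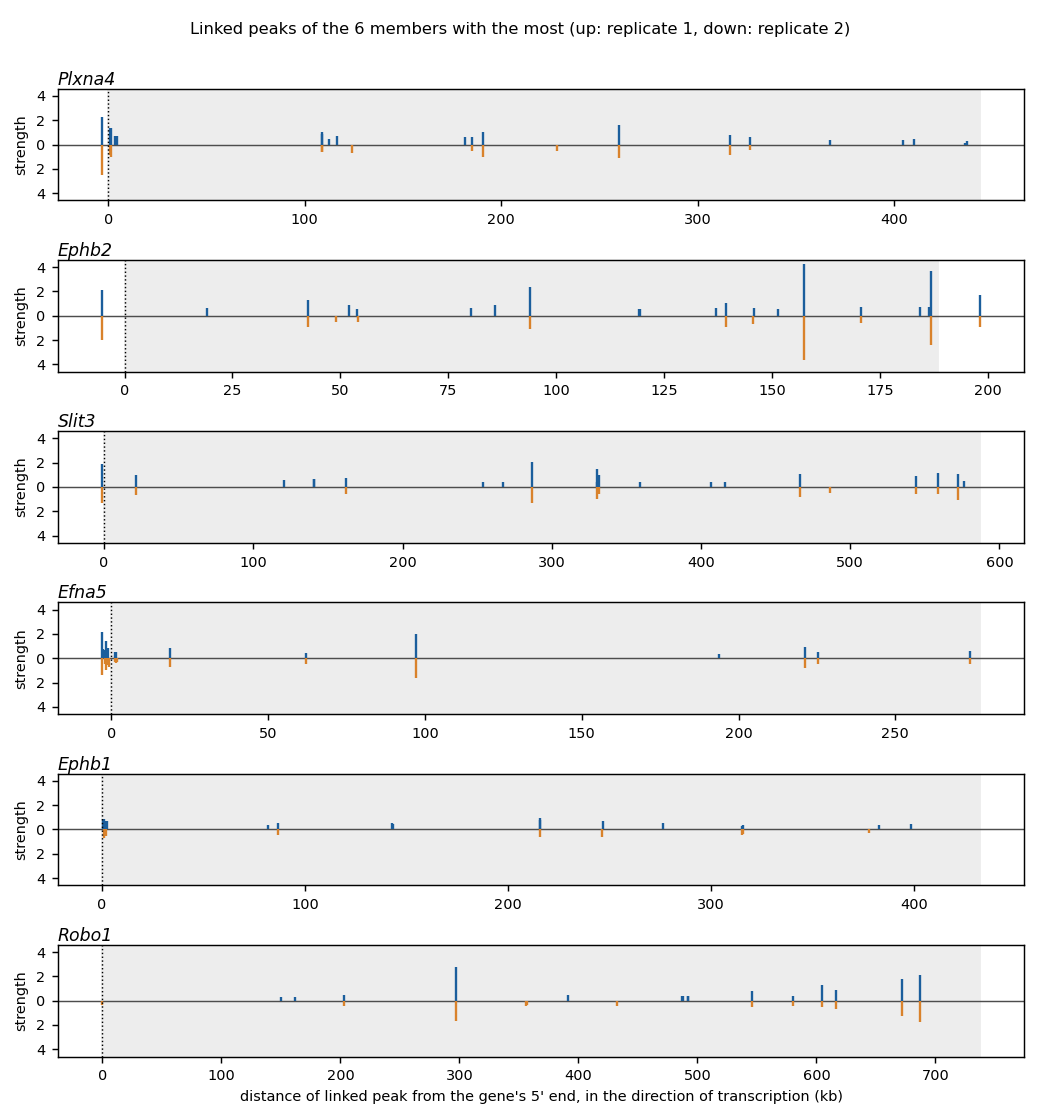
Positions of linked peaks at the 6 genes with the most, as distance in kb from the gene's 5′ end (dotted line) in the direction of transcription, with the gene body in grey and peak strength drawn upwards for replicate 1 and downwards for replicate 2. The tallest lines, such as the Ephb2 site with 4.29 and 3.65, stand at the same place in both libraries, while many short lines appear in replicate 1 only.

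The 5 strongest linked sites of the members were stronger than the median promoter peak of all genes. They were picked by strength, so this does not show that strong sites are more frequent at members. At Epha4 a site 1363 bp upstream of the 5′ end had strengths of 5.68 and 3.92, above those of the gene's promoter peaks, and it overlaps an exon of the long noncoding RNA gene Gm28386. Robo3 had no promoter peak, yet a site 2485 bp inside the gene, in an intron, had 4.23 and 4.19. Ephb2 had a site deep in an intron, 157347 bp from its 5′ end, with 4.29 and 3.65. A site 3612 bp upstream of Sema3b had 6.24 and 3.15, and one beyond the 3′ end of Unc5b, a netrin receptor also known from vessels, had 4.16 and 3.24. Each of the 5 sites was open in both libraries and held footprints in both. Robo3 is shown as a gene without a promoter peak that holds a strong site, and Epha4 and Ephb2 as an upstream and an intronic site. The sequences are on the gene's strand, which is minus for all 3, over the stretch shared by the peaks of both libraries, with bases inside footprints of both in capitals. Their positions are chr9:37430681-37430840, chr1:77516341-77516560 and chr4:136678541-136678740.
Robo3 intronic site: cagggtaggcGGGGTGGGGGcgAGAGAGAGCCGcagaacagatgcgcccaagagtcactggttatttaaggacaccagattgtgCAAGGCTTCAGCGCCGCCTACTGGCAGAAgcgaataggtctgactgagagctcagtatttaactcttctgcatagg
Epha4 upstream site: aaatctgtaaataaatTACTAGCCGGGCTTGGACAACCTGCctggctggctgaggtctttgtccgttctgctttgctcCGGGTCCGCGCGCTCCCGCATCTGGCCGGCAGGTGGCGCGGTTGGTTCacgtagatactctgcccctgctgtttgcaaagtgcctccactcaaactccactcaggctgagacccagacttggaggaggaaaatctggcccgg
Ephb2 intronic site: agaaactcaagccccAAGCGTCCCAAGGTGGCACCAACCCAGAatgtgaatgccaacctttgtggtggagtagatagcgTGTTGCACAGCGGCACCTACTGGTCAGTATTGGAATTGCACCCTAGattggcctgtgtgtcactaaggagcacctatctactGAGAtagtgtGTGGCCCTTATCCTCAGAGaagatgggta
The footprinted bases number 50 at Robo3, 73 at Epha4 and 97 at Ephb2. None of the 3 stretches matched any of the 12 motifs searched with all letters required. All 3 match the consensus of CTCF, the factor that anchors chromatin loops, when 1 mismatch is allowed, a search added after these sequences were seen. Among sites at or above percentile 95 of strength in both libraries, 10 of the members' 13 (76.9%) had such a match, beside 62.5% of 1337 such sites of all protein-coding genes. With all letters required, 1 of the 13 (7.69%) matched, beside 29.1%, so the order of the shares depends on the mismatch allowed. Among weaker sites shared by both libraries the shares were 28.2% of 220 for members and 31.0% for all genes. With 13 sites, nothing particular to the guidance genes is read from these shares.

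Motif letters inside footprints were then searched on both strands, with each footprint extended by 5 bp on both sides. The motifs of this step were CTCF, CREB (TGACGTCA), EGR (GCGTGGGCG or GCGGGGGCG), NRF1 (GCATGCGC) and NFI (TTGGC and GCCAA with 5 bases between). In both libraries CTCF matched at 26 sites of 21 genes, EGR at 6 sites of 5 genes and CREB at 2 sites of 2 genes, whereas NFI and NRF1 matched at none. The 2 EGR sites of Plxnb2 overlap each other and lie in the same footprint. As shares of footprints in linked peaks, CTCF matched 3.61% in replicate 1 and 5.71% in replicate 2 for members, beside 3.64% and 5.33% for all genes. EGR matched 1.66% and 1.08% of footprints in member promoter peaks, beside 1.13% and 1.07%. NFI was rare in all genes too, at 0.00515% and 0.00490% of promoter footprints, so nothing is read from its absence here. CTCF matches lay away from promoters except for 1, at an internal start of Sema4f. Of the EGR matches 2 were in promoters, at Plxna2 and Efna3, and of the CREB matches 1, at Epha2. A match describes letters and does not show that the factor was bound. The 10 footprints in the strongest peaks follow on the gene's strand of mm10, with the motif in capitals, since they are the protected letters that recurred in both libraries.
Plxna2 promoter, EGR: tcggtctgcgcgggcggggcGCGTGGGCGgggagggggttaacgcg
Efna3 promoter, EGR: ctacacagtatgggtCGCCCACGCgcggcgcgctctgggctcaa
Epha2 promoter, CREB: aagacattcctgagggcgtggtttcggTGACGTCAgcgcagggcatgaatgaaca
Sema3b upstream, CREB: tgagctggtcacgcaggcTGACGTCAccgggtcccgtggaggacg
Unc5b downstream, CTCF: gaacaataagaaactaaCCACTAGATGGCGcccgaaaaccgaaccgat
Slit1 intron, CTCF: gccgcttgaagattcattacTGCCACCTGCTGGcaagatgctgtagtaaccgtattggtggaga
Robo1 intron, CTCF: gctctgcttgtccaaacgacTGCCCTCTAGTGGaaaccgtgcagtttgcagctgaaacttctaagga
Ephb2 upstream, CTCF: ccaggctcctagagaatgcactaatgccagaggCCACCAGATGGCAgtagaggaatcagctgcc
Nrp2 intron, CTCF: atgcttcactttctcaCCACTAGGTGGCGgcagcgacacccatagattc
Efna5 intron, CTCF: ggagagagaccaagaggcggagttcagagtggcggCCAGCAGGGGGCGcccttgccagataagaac
The Plxna2 motif is at chr1:194619742-194619750, 80 bp from the nearest annotated start, and that of Efna3 at chr3:89323041-89323049, 79 bp upstream of the gene. The Epha2 motif is at chr4:141301188-141301195, 49 bp upstream of the gene, and the Sema3b motif at chr9:107612782-107612789, 3556 bp upstream and in the strongest linked site of that gene. The CTCF matches are at chr10:60760641-60760653 (Unc5b), chr19:41647154-41647166 (Slit1), chr16:72605258-72605270 (Robo1), chr4:136841291-136841303 (Ephb2), chr1:62786441-62786453 (Nrp2) and chr17:62784100-62784112 (Efna5). The matches at Slit1, Robo1, Nrp2 and Efna5 lie in introns and those at Unc5b and Ephb2 outside annotated exons and beyond the gene. Their peaks had strengths from 1.96 at Efna5 to 4.16 at Unc5b in replicate 1 and from 1.63 at Efna5 to 3.24 at Unc5b in replicate 2.

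Over whole promoter peaks, motifs that mark many housekeeping promoters were not found among the members. NRF1 letters occurred in 0 of 140 member promoter peaks in replicate 1 and 0 of 114 in replicate 2, beside 3.57% and 4.04% over promoter peaks of all protein-coding genes. ETS letters (CCGGAAGT) also occurred in 0 of 140 and 0 of 114, beside 4.49% and 5.08%. With 3 counts as the limit that a 0 allows, these shares could be up to 2.14% in replicate 1 and 2.63% in replicate 2. Peaks of 1 gene can overlap or lie side by side, so they are not independent. Promoter windows of RefSeq, from 250 bases before to 50 after a start, were searched as well. They are defined without the DNase data but cover much of the same sequence. For 60 of the 70 genes such windows were given, 76 in all, and 0 held NRF1 or ETS letters, beside 3.65% and 5.35% of 20150 windows. The 0 of 76 allows up to 3.95%, so for NRF1 these windows do not set the members apart.

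EGR letters occurred in 8.57% and 7.02% of member promoter peaks beside 5.97% and 5.61% over all genes. SP/KLF letters, which can overlap those of EGR, occurred in 17.9% and 15.8%, beside 15.2% and 15.0%. In the RefSeq windows EGR letters occurred in 11.8% for members and 4.81% for all genes, and SP/KLF letters in 26.3% and 15.8%. The RefSeq windows with EGR letters belonged to Efna3, Epha1, Epha8, Plxna2, Plxnb2, Sema4g, Sema5a, Sema6b and Slit2. The GC content of member promoter peaks was 65.1% and 64.6% in the median, beside 63.5% and 63.2%, and a median width of 301.5 and 259 bp beside 240 bp in both libraries. The parts of base composition and width in these shares were not tested. In linked peaks the CTCF share was 7.16% and 9.93% for members and 7.16% and 10.2% for all genes. The proneural E-box (CAGATGG) occurred in 9.40% and 6.99% of member linked peaks, beside 9.22% and 8.30%. For both motifs the shares of members and of all genes in linked peaks lay close to each other. In promoter peaks the E-box occurred in 1.43% and 0.877% for members, only 2 and 1 peaks, beside 4.11% and 3.56% for all genes. The other motifs searched were AP-1 (TGACTCA), RFX (GTTGCCATG), MEF2 (CTATTTATA or CTAAAAATA) and POU (ATGCAAAT), and their shares are plotted by motif.

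**Figure D4:**
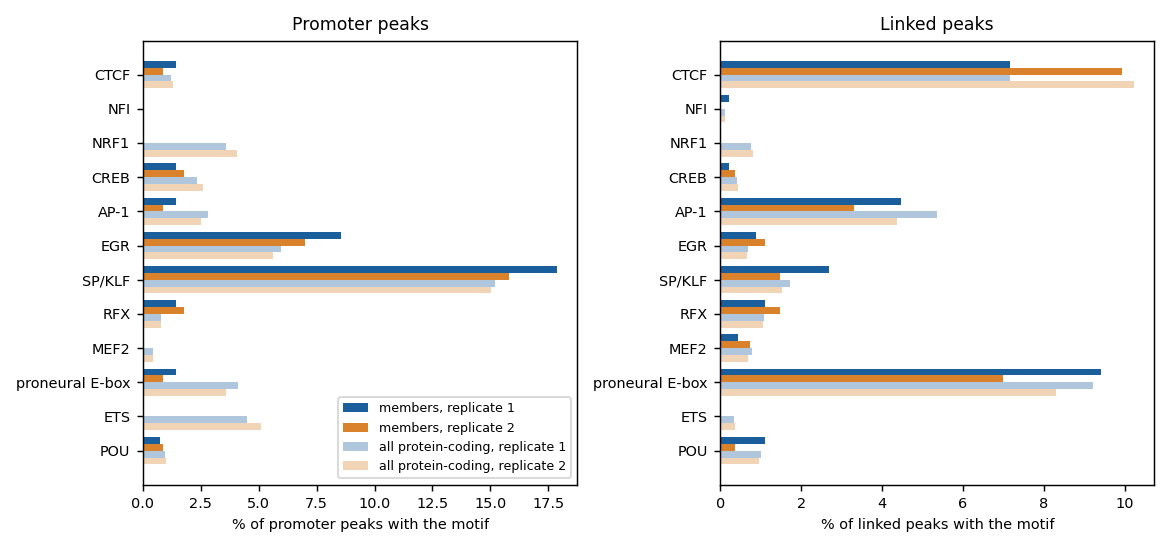
Percentage of promoter peaks (left) and linked peaks (right) that hold each of 12 motifs, for members in full colours and all protein-coding genes in pale colours, replicate 1 in blue and replicate 2 in orange. NRF1 and ETS bars are at 0 for member promoter peaks, and the CTCF bars for members and all genes in linked peaks are of nearly equal length.

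Other genes of the pathway were described in the same way, as a list of surface molecules and further cues and a list of cytoplasmic effectors. Of 20 co-receptors and further cues, 16 had a promoter peak in both libraries, with median strengths of 1.18 and 0.922 and medians of 9 and 4.5 linked peaks. Of 35 cytoplasmic effectors, 33 had one in both, with median strengths of 3.11 and 2.03, above the medians of all genes, and 6 and 4 linked peaks. These are 80.0% of the co-receptors and cues and 94.3% of the effectors, beside 58.8% of all protein-coding genes. Linked peaks of all genes had medians of 1 and 1. Genes of both lists are long, with median lengths of 75.7 and 120 kb against 17.4 kb, and these counts are not adjusted for length. The co-receptors and cues highest by mean percentile were Rgmb, a repulsive guidance molecule that binds Neo1, with 8.05 and 3.95, Rtn4, which encodes Nogo, with 4.85 and 3.04, and Flrt3, an adhesion protein that binds Unc5 receptors, with 3.59 and 2.84. Draxin and Flrt1 had no promoter peak in either library. The effectors highest by mean percentile were the adaptor Nck1, with 8.27 and 5.05, the Slit-Robo GTPase-activating protein Srgap2, with 7.37 and 4.25, and Dpysl2, which encodes the semaphorin mediator CRMP2, with 7.96 and 3.80. In replicate 2 Rhoa, a GTPase of the cytoskeleton, was above the last 2, with 4.26. Effectors without a promoter peak in either library numbered 0, and Ngef and Dock1 had one in replicate 1 alone.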

How the data were processed

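DNase-seq libraries of 2 biological replicates were analysed. Per the deposited notes of each library, the authors called peaks, footprints and FDR cut rates separately per library on mm10. Caller, versions and thresholds are not stated there. Peak strength is the signal the authors deposited for each peak, and its normalization is not stated. In each library it is a whole multiple of 1 step (0.00670 in replicate 1, 0.00858 in replicate 2), to within 0.05 of a step, and the median member promoter peak held 234 and 131 steps. The deposited FDR values are on a p-value scale, all below 0.05. The score column of the footprint files is constant as deposited, so positions alone were used. The longer peak list was used, and neighbouring peaks in it can overlap.

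Peaks were joined to GENCODE M21 (mm10), whose chromosome lengths fit the files, with python 3.11.15, numpy 2.4.6 and pandas 2.3.3, and sequences were read with pysam 0.24.0. Overlaps needed at least 1 bp and were checked against bedtools 2.31.1 on 5000 simulated intervals. Footprints counted when wholly inside a peak. FDR-listed bases refer to the windows of all annotated starts, and the CpG ratio to the window at the gene's 5′ end alone. Members and lists were chosen with earlier results of these data known. Genes were named by rule: highest and lowest mean percentile and most linked peaks per family, every gene without a promoter peak in 1 or both libraries, the 5 strongest linked sites and, of other pathway genes, those without a promoter peak and the top 3 per list. Genes added beyond the rule were chosen after their values were seen.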

Additional observations from a re-analysis of the deposited data

How the results depend on the processing

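The number of genes with a promoter peak in both libraries, 55 of 70, ranged from 46 to 62 under the settings tried, single libraries included. It was 46 with the shorter peak list (lost were Efnb3, Ntn1, Slit1, Unc5a, Efna3, Sema4a, Plxna4, Ephb6 and Plxna1), 53 and 59 with windows of 200 and 1000 bp, 49 at the 5′ end of the gene record alone, 55 with equal numbers of the strongest peaks, 55 and 62 from a single library, and 54 without Unc50 and Unc5cl. The 1000 bp window added Sema5a, Efna1, Epha10 and Robo3. With the shorter list the share was 65.7% of members, beside 52.4% of all protein-coding genes. With windows of 200 and 1000 bp it was 75.7% and 84.3%, beside 56.5% and 60.4%. At the 5′ end alone, 49 of 70 members stood beside 53.2% of all genes. With equal numbers of the strongest peaks it was 78.6% of members, beside 57.96%. The share of members thus stayed above that of all genes under each of these settings. The number with a footprint in a promoter peak, 54 of 70, ranged from 41 with the shorter list to 62 in replicate 1 alone. The shares of all protein-coding genes under these 2 settings were 50.9% and 62.0%. The median of linked peaks, 4 over both libraries, moved to 1.5 with the shorter list, 2.5 for the gene body alone and 7 with 50 kb on each side, as the window or list holds fewer or more peaks. Over all protein-coding genes it was 1, and under these 3 settings 0, 0 and 3.5. The numbers of 47 single genes moved with the shorter list. The members' median of linked peaks was 3 to 5 from a single library. The median promoter strength was 1.12 to 1.57 from a single library. Without Unc50 and Unc5cl it was 1.51 in replicate 1 and 1.09 in replicate 2. Summed over all promoter peaks of a gene, the members' median strength was 2.51 in replicate 1 and 1.66 in replicate 2, beside 3.56 and 2.45 for all genes. Over the 55 genes with a promoter peak in both libraries, the mean of the 2 library medians moved from 1.43 to 2.23 with summed peaks. Members stayed below all genes in median strength in both libraries with summed peaks and at the 5′ end alone. The order within families did change: with summed peaks Sema4b passed Sema4c in replicate 2 (5.90 and 4.97) and Unc5c passed Neo1 there (3.18 and 2.46). No paired analysis was possible because there is only 1 group.

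The settings with the shorter list, the other windows and single libraries were planned, and those without Unc50 and Unc5cl and the single-library strengths were added after seeing the data. The libraries hold different numbers of calls, and the part of this in the peaks missing from replicate 2 was not tested.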

Other observations

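Some guidance genes that lacked a promoter peak in 1 or both libraries had open sites nearby, while Sema4g had 2 linked peaks in replicate 1 and none in replicate 2. Efna1, with a promoter peak in replicate 1 alone, had a linked site about 1 kb upstream with strengths of 1.98 and 1.17. At Sema3g the libraries had 3 and 2 linked peaks, the strongest downstream of the gene with 3.08 and 1.48. Sema5a had a site 1371 bp inside the gene with 3.75 and 3.05. Of the receptors, Epha10 had a peak 792 bp inside the gene in replicate 1, with 2.47, and 712 bp inside in replicate 2, with 1.41. The linked peak counted for Robo4 is the same as 1 counted for its neighbour Robo3. The Epha10 site lies in an exon, just outside the start window of 500 bp.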
